A study of Mus musculus with 8 samples.

Results

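The genes described here carry glucose into the cell, break it down to pyruvate and lactate, or belong to the response to low oxygen. The list holds 38 genes, and its members were measured by every non-control probe set of the array whose annotation names 1 of them alone. Such a probe set was in use for 34 of the 38 genes, through 73 of the 45037 non-control probe sets, in a series where 18193 genes have one. The other 4 were not measured in this way: Gpi1, Eno1 and Bnip3l had no such probe set in use, and Gapdh was read only by control probe sets or by probe sets shared with other genes. Of the 34 genes, 31 were bright enough to be tested and 3 (Eno2, Ankrd37 and Adm) were not.

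Total RNA of 8 samples of mouse embryoid bodies, aggregates of differentiating embryonic stem cells, was read on 1-colour Affymetrix Mouse430_2 arrays. In 4 samples (replicates 5 to 8) the bodies received 1 μM of the Hedgehog agonist HH-Ag together with 500 nM retinoic acid, and in the other 4 (replicates 1 to 4) they received 500 nM retinoic acid alone. Treatment began after 2 days in suspension, and both groups came from YFP3.1 embryonic stem cells that constitutively express Gli1FLAG, a tagged form of a transcription factor of the Hedgehog pathway, so the samples without agonist carry this transgene too. Collection was 3 days into differentiation, but the labels of agonist replicate 7 give neither line nor day. The labels call the samples biological replicates without saying what separated them, so each p-value covers only the spread among these 8 samples, which may be technical. Neural markers were read: the summed intensity of 8 pan-neuronal genes was 2017 to 2147 with the agonist and 679 to 753 with retinoic acid alone. Of 7 neural progenitor genes 6 were bright enough to be tested and only Sox1 was not. Markers of other cell types were bright enough too: 8 of 8 pluripotency, 7 of 10 blood and endothelial and 6 of 8 endoderm genes. Being bright enough to test therefore does not tell which cells were present.

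Glucose enters cells through facilitative transporters of the SLC2A family, GLUT1 (Slc2a1) and GLUT3 (Slc2a3) among them, and neurons are known for GLUT3. Glycolysis then splits glucose into pyruvate, which is reduced to lactate by lactate dehydrogenase or enters mitochondria through pyruvate dehydrogenase, an enzyme that the PDK kinases switch off. When oxygen is low, prolyl hydroxylases of the EGLN family no longer mark HIF-1α for destruction, and HIF-1 binds a short DNA core in the promoters and enhancers of many of these genes.

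The HIF core was searched for as ACGTG or GCGTG, on both strands, in the 250 bases upstream of the transcription start of each gene. Starts came from RefSeq's promoter table for the mouse build GRCm38.p6, and where a gene had several, only the most upstream was used. The 4 windows below are shown because Slc2a1 and Ddit4 passed the test of the agonist and Ldha and Pgk1, well-known HIF targets, did not. Each reads 5′ to 3′ on the strand of its gene, and capitals mark the core letters on either strand (CACGT and CACGC are the same cores read from the opposite strand, and CACGTG holds the first core on both).
Slc2a1, chr4:119108495-119108744, plus strand: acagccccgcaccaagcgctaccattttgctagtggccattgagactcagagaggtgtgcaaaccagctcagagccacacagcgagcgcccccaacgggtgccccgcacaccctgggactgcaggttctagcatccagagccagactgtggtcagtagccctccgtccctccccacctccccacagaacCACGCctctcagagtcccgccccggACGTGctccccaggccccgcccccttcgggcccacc
Ddit4, chr10:59951771-59952020, minus strand: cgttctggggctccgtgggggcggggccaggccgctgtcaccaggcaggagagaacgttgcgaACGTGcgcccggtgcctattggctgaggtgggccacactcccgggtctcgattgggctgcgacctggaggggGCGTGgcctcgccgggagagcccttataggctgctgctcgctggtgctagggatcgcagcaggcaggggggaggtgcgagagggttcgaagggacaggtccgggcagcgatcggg
Ldha, chr7:46845554-46845803, plus strand: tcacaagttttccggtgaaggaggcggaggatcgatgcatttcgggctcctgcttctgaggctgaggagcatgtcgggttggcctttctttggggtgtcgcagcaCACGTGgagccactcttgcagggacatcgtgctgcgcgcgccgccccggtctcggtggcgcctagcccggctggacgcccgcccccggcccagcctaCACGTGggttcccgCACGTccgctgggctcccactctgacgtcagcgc
Pgk1, chrX:106186850-106187099, plus strand: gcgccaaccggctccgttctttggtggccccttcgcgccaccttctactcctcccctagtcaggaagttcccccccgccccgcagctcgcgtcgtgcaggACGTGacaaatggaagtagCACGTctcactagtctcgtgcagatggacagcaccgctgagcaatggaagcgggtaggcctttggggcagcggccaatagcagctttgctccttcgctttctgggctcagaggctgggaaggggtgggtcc
The Slc2a1 window held 2 matches, the Ddit4 window 2, the Ldha window 5 and the Pgk1 window 2. The table had no window for Slc2a3, Ndrg1 or Bnip3l. Of the 35 members with a window, 27 (77.1%) held at least 1 match, against 38.6% of the 27025 genes in the table. Member windows were richer in G and C, with a median of 62.8% against 52.0% for all genes. Among windows with at least 60% G and C, 18 of 19 member windows (94.7%) held a match, against 64.3% of all genes. A match describes these letters only, and 6 tested members (Aldoa, Hk1, Mxi1, Pkm, Tpi1 and Vegfa) had none in this window.

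Both glucose transporters and the hypoxia- and stress-induced gene Ddit4 fell with the agonist, and no member rose. For each gene the brightest of its probe sets was used, and intensities were compared as log2(intensity + 16) in a linear model (limma) with p-values adjusted by the Benjamini-Hochberg method over all 27022 tested probe sets, at a threshold of 0.05. By this test 3 of the 31 tested members were lower, 0 were higher and 28 did not pass, which does not show that those 28 were unchanged. Without adjustment, limma's p was under 0.05 for 10 members below 0 and 5 above it. Over all 13675 tested genes, 0.87% were lower and 1.31% higher after adjustment, and 7.81% and 5.87% were so without it. By probe set, 6 of the 59 tested member probe sets were lower and 0 higher, against 0.733% and 1.14% of all tested probe sets. The list was chosen with earlier results of these data known, which limits such comparisons. Because the embryoid bodies hold several cell types, fewer cells of a type and less RNA per cell cannot be told apart.

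Slc2a3, the high-affinity transporter GLUT3, had intensities of 872, 937, 1027 and 904 with the agonist (replicates 5 to 8) against 1311, 1586, 1059 and 1582 with retinoic acid alone (replicates 1 to 4). All agonist arrays lay below all retinoic-acid arrays, although retinoic-acid replicate 3 stood only just above agonist replicate 7. The means were 935 ± 66.5 with the agonist and 1384 ± 252 without it (SD, n = 4 each), a log2 fold change of -0.54 with a standard error of 0.095 and a 95% interval of -0.74 to -0.34 (limma, adjusted p = 0.0032). All 4 probe sets of the gene lay below 0. The probe set 1455898_x_at, at -0.50, passed as well (limma, adjusted p = 0.0038). The other two, 1421924_at at -0.60 and 1427770_a_at at -0.40, did not pass, with limma's adjusted p at 0.066 and 0.289. In the manufacturer's naming, the suffixes _s_at and _x_at of the passing probe sets mark probes that may also match other transcripts. In the probe sets that did not pass, retinoic-acid replicates 2 and 4 stood far above replicates 1 and 3, with 380 and 433 against 250 and 206 at 1421924_at.

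Slc2a1, the widely expressed transporter GLUT1, had intensities of 787, 744, 878 and 669 with the agonist against 1035, 1029, 859 and 959 with retinoic acid alone. The groups overlapped, since agonist replicate 7 lay above retinoic-acid replicate 3. The means were 769.7 ± 87.2 with the agonist and 970.3 ± 82.0 without it (SD, n = 4 each), a log2 fold change of -0.33 with a standard error of 0.074 (limma, adjusted p = 0.0235). All 3 probe sets of the gene passed, and the lowest value was at 1426600_at, with 563, 584, 698 and 567 in the agonist group against 748, 911, 726 and 952 in the retinoic-acid group. There the groups did not overlap, and the log2 fold change was -0.45 (limma, adjusted p = 0.0060). The call at the brightest probe set was lost in 4 of the 8 settings that left out 1 array, while the log2 fold change stayed below 0. It was -0.32 without agonist replicate 6 and -0.27 without agonist replicate 8 (limma, adjusted p = 0.0976 and 0.0978), and -0.30 without retinoic-acid replicate 1 and likewise without replicate 2 (limma, adjusted p = 0.0867 and 0.0902).

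**Figure D1:**
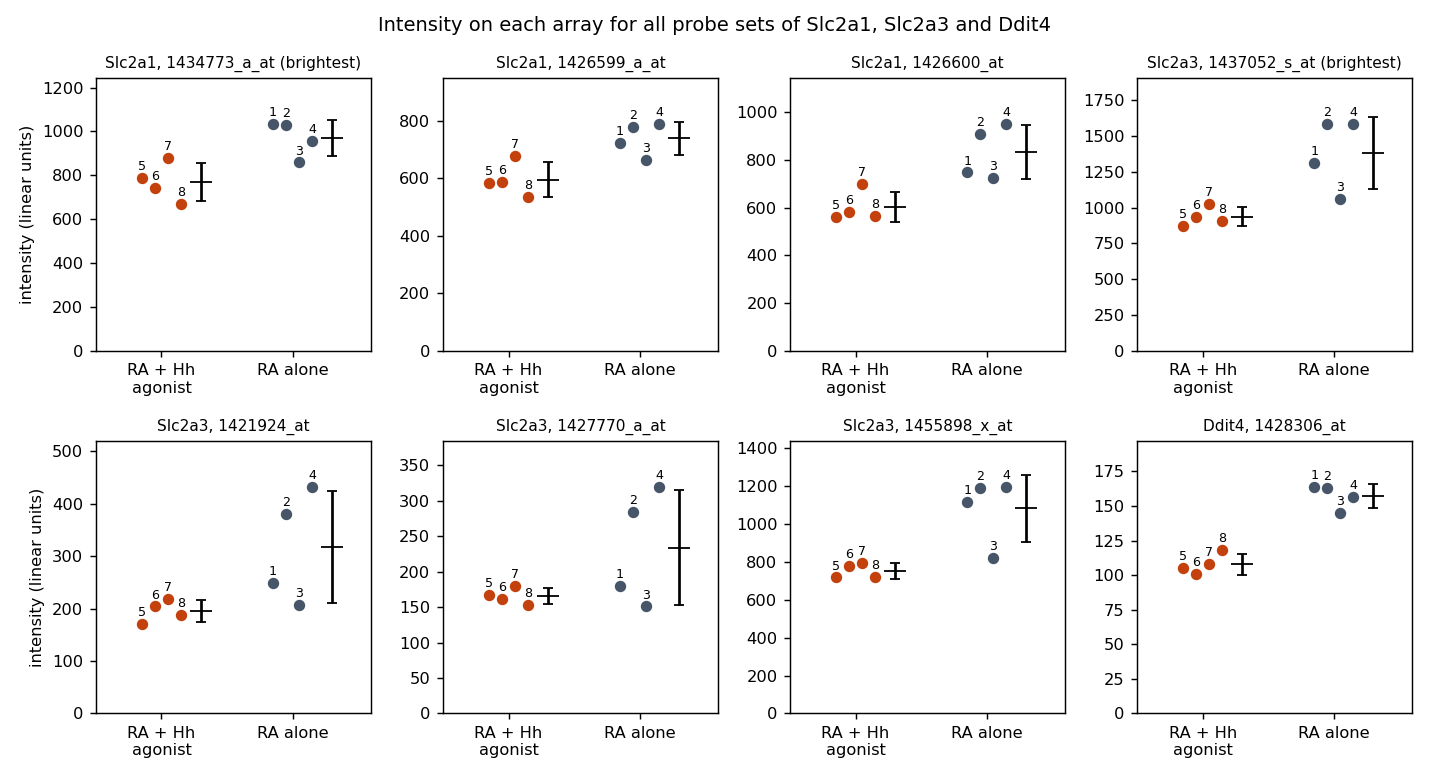
Intensity (linear units, axis from 0) on each array for every probe set of Slc2a1, Slc2a3 and Ddit4, with the agonist group left of retinoic acid alone, replicate numbers beside the points and the mean with its SD as a bar. Ddit4 runs from 101 to 118 in the agonist group and from 145 to 164 in the retinoic-acid group, while the points of Slc2a1 at its brightest probe set overlap.

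Of 10 tested oxygen-sensing and hypoxia genes, Ddit4 fell, 0 rose and 9 did not pass, where 0.87% of all tested genes were lower and 1.31% higher. Ddit4 encodes REDD1, an inhibitor of mTORC1 that is induced by hypoxia and other stresses. It has 1 probe set here, with intensities of 105, 101, 108 and 118 with the agonist against 164, 163, 145 and 157 with retinoic acid alone. Every agonist array lay below every retinoic-acid array. The means were 108 ± 7.46 with the agonist and 157 ± 8.83 without it (SD, n = 4 each), a log2 fold change of -0.48 with a standard error of 0.081 and a 95% interval of -0.65 to -0.31 (limma, adjusted p = 0.0020).

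Of the other hypoxia genes, 3 had all agonist arrays below all retinoic-acid arrays without passing. Over all tested genes 4.04% were separated in this way, and 3.99% in the reverse way. Ndrg1, a stress-responsive gene, read 49.0, 65.0, 66.3 and 47.5 with the agonist against 81.2, 75.0, 72.4 and 80.3 without it, a log2 fold change of -0.36 (limma, adjusted p = 0.106). These values came from 1456174_x_at, whose suffix marks probes that may also match other transcripts. The other tested probe set of Ndrg1 lay at -0.10 and overlapped between groups. Of its probe sets too dim to test, 1450976_at had all agonist arrays above (14.4 to 18.1 against 8.29 to 14.3), and the rest overlapped. Egln3, the oxygen-sensing hydroxylase PHD3, read 65.5, 48.8, 71.2 and 65.4 with the agonist against 79.5, 78.2, 73.5 and 97.2 without it, a difference of -0.32 (limma, adjusted p = 0.200). Its other probe set, at -0.12, overlapped between groups. Higd1a, a mitochondrial protein induced by hypoxia, read 344, 330, 348 and 314 with the agonist against 351, 375, 366 and 390 without it, a difference of -0.14 (limma, adjusted p = 0.353). Its second tested probe set lay at 0.29. Mxi1, a MYC antagonist, was the hypoxia gene whose agonist arrays all lay above, with 109, 86.3, 96.3 and 92.8 against 81.2, 77.6, 83.9 and 83.5 with retinoic acid alone (log2 fold change 0.20, limma, adjusted p = 0.374). The second tested probe set of Mxi1, at 0.09, overlapped between groups.

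Bnip3, which promotes mitophagy, is the brightest member of this role. It read 391, 337, 372 and 357 with the agonist against 410, 399, 332 and 444 without it, and the groups overlapped (log2 fold change -0.11, limma, adjusted p = 0.637). The log2 fold changes of the remaining genes were -0.25 for P4ha2 and -0.03 for P4ha1, subunits of collagen prolyl 4-hydroxylase, -0.11 for Egln1, the hydroxylase PHD2, and 0.12 for Vegfa, the angiogenic growth factor. Adm, encoding adrenomedullin, and Ankrd37 were too dim to test, with mean intensities of 10.0 and 9.25 with the agonist against 9.87 and 14.9 with retinoic acid alone.

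None of the 8 upper glycolysis members, from hexokinase to triose phosphate isomerase, passed the test. Aldoa, the main aldolase of muscle and most dividing cells and the brightest member of this role, read 2711, 3059, 2863 and 2750 with the agonist against 2875, 3409, 2866 and 3276 without it, and the groups overlapped. Its log2 fold change was -0.12 (limma, adjusted p = 0.352), and 4 of its 5 probe sets, which all carry the suffix _x_at, lay below 0. Hk2, the inducible hexokinase, averaged 107 ± 15.98 with the agonist and 137 ± 26.2 without it (SD, n = 4 each), a log2 fold change of -0.31 (limma, adjusted p = 0.271). Aldoc, the aldolase of brain, was the highest of the members at 0.40, with 128 ± 19.0 in the agonist group and 93.9 ± 18.1 in the retinoic-acid group (SD, n = 4 each; limma, adjusted p = 0.122). The remaining log2 fold changes were 0.18 for Tpi1, 0.10 for Hk1, -0.22 for Pfkp, -0.05 for Pfkm and -0.04 for Pfkl. Pfkp, Pfkm and Pfkl are the platelet, muscle and liver forms of phosphofructokinase.

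Of the lower steps 3 members were tested, and none passed. Pgk1, phosphoglycerate kinase, read 2953, 2677, 2827 and 2556 with the agonist against 2874, 2714, 2677 and 2823 without it, a log2 fold change of -0.01 with a 95% interval of -0.10 to 0.08 (limma, adjusted p = 0.953) that turned to 0.02 with quantile normalization. Pkm, pyruvate kinase, differed by -0.04 (95% interval -0.13 to 0.04) and Pgam1, phosphoglycerate mutase, by -0.08 (-0.23 to 0.07). Eno2, the enolase typical of neurons, was too dim to test, with 10.1 ± 4.02 in the agonist group and 12.6 ± 4.72 in the retinoic-acid group (SD, n = 4 each).

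Lactate dehydrogenases and lactate transporters gave 0 calls among 4 members. Ldha, the form that favours lactate production, read 4244, 3936, 3796 and 3935 with the agonist against 3627, 3864, 3512 and 3954 without it. The groups overlapped, and the log2 fold change was 0.09 with a 95% interval of 0.00 to 0.18 (limma, adjusted p = 0.392). Ldhb, the heart form, differed by -0.08 and lay below 0 at all 4 of its probe sets. The lactate exporters and importers Slc16a1 (MCT1) and Slc16a3 (MCT4) differed by -0.15 and 0.00, and the value of Slc16a3 turned to -0.01 with arrays centred on their median.

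The regulatory kinases lay on both sides of 0, and none of the 4 passed. Pdk1, which inactivates pyruvate dehydrogenase, read 89.5, 65.9, 71.2 and 72.2 with the agonist against 101, 89.7, 77.1 and 98.1 without it, a log2 fold change of -0.25 (limma, adjusted p = 0.328). All 3 of its tested probe sets lay below 0. At 1434974_at all agonist arrays lay below all retinoic-acid arrays, and the difference of -0.20 did not pass (limma, adjusted p = 0.502). Pdk3, of the same family, averaged 29.2 ± 4.71 with the agonist and 44.6 ± 9.43 without it (SD, n = 4 each), a difference of -0.42 (limma, adjusted p = 0.126). Pfkfb3, which makes the phosphofructokinase activator fructose 2,6-bisphosphate, read 43.4, 45.2, 49.9 and 47.5 with the agonist against 28.8, 34.1, 29.9 and 43.2 without it. All agonist arrays lay above, and the difference of 0.33 did not pass (limma, adjusted p = 0.194). The other probe set of Pfkfb3, at 0.18, overlapped between groups. Pfkfb4, which makes the same activator, differed by 0.10.

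**Figure D2:**
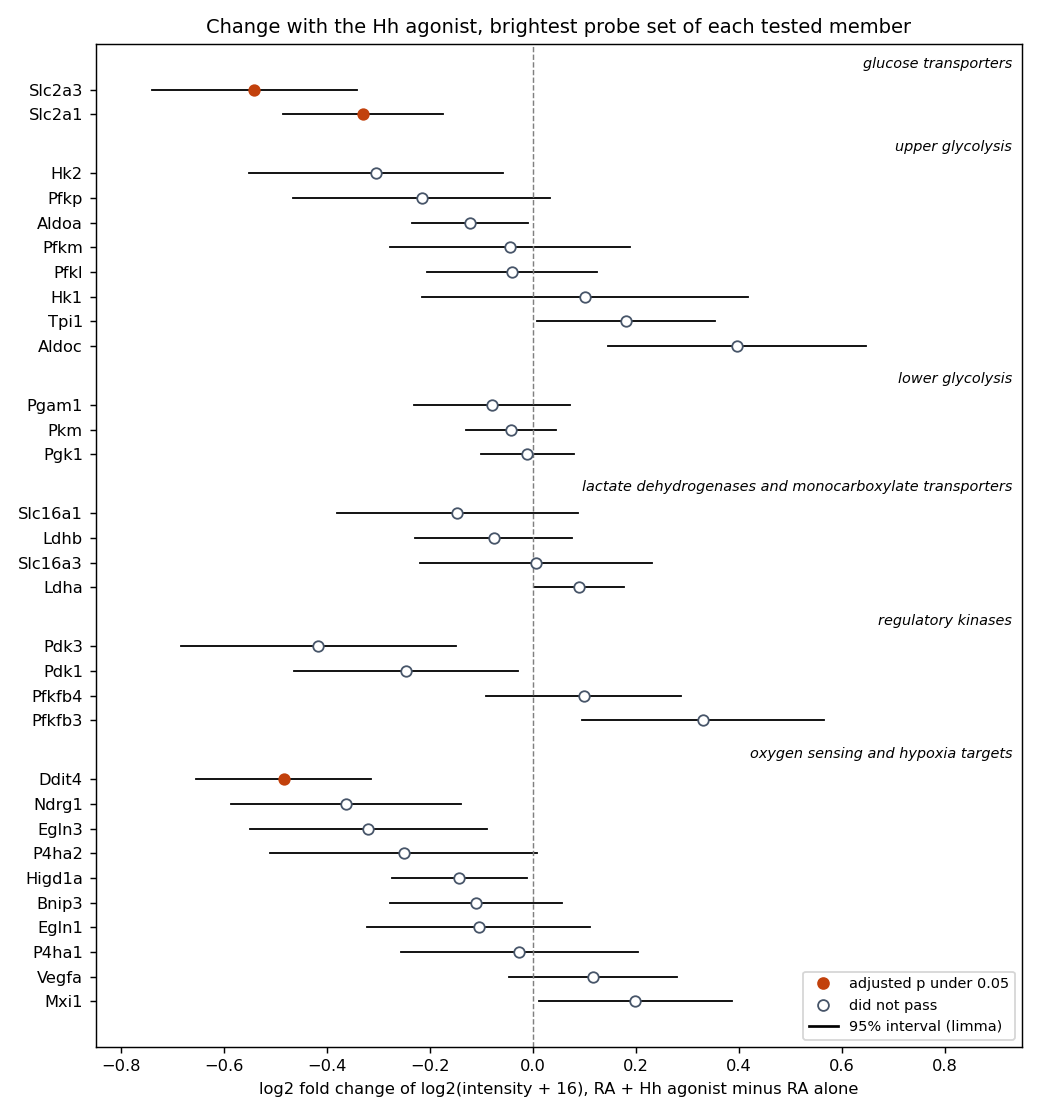
Log2 fold change (agonist minus retinoic acid alone, on the log2(intensity + 16) scale) of the brightest probe set of each of the 31 tested members, by role, with 95% intervals from limma and filled points for adjusted p under 0.05. Slc2a3 at -0.54, Ddit4 at -0.48 and Slc2a1 at -0.33 are filled, and Aldoc at 0.40 is the rightmost point.

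Over the 31 members the median log2 fold change was -0.08, against -0.01 over all tested genes, and 22 of 31 (71.0%) lay below 0, against 51.8% of all tested genes. Their standard errors ran from 0.041 to 0.150, with a median of 0.095, against 0.108 for all tested genes. In 5 members (16.1%) all agonist arrays lay below all retinoic-acid arrays, and in 2 (6.45%) all lay above. Over all tested genes these shares were 4.04% and 3.99%. Because the members were chosen with earlier results of these data known, no excess over all genes is drawn from these shares. Of the 16 members with at least 2 tested probe sets, 11 had all of them on 1 side of 0 and 5 (Aldoa, Higd1a, P4ha1, Pfkl and Pgk1) on both sides.

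Many members shared an order of arrays within a group. The matching counts over all tested genes are not given here, so this order is not shown to be particular to the members. Retinoic-acid replicate 3 was the lowest of its group for 24 of the 31 members, replicate 4 was the highest for 14 and the lowest for 0, and replicate 2 was the highest for 8. Among the agonist arrays, replicate 7 was the highest for 17 members. The mean log2 level over the 31 members was 7.85, 7.80, 7.92 and 7.81 on agonist replicates 5 to 8 and 7.91, 8.01, 7.78 and 8.06 on retinoic-acid replicates 1 to 4. Retinoic-acid replicate 3 thus lay below every agonist array, and replicates 2 and 4 above every one. With retinoic-acid replicate 3 left out, 11 member probe sets passed as lower rather than 6, and with agonist replicate 7 left out too, 12 did. Over all tested probe sets the number passing in either direction rose as well, from 506 to 616 and to 714. Both arrays stood out in these same member values, so leaving them out gives no separate support for a fall of the members.

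The pluripotency, the p53 and the blood and endothelial markers had a like order of arrays. In each of these lists retinoic-acid replicate 3 had the lowest and replicate 4 the highest sum of the retinoic-acid arrays. Agonist replicate 7 had the highest sum of the agonist arrays. Other lists shared parts of this order. Retinoic-acid replicate 4 was also highest of its group for the pan-neuronal, mesoderm and glia sums, and agonist replicate 7 for the pan-neuronal and neural progenitor sums. Parts of other sums went against this order. Retinoic-acid replicate 4 was lowest of its group for endoderm (208), and agonist replicate 7 for glia (133). For the pan-neuronal sum retinoic-acid replicate 3, at 749, lay just under replicate 4, at 753. The summed intensity of 8 pluripotency genes was 1016 to 1198 with the agonist and 1082 to 1452 with retinoic acid alone. Of these 8 genes, all of them tested, Klf2 and Dppa4 fell and 6 did not pass. The sum over apoptosis and p53 target genes was 815 to 953 with the agonist and 994 to 1123 without it, and Ccng1 and Perp fell among 6 tested. Of the pan-neuronal genes 7 of 8 rose, and of the 6 tested neural progenitor genes Pax6 fell, Fabp7 rose and 4 did not pass, with sums of 751 to 822 with the agonist and 765 to 890 without it. The sums over the endoderm list were 231 to 258 and 208 to 238, with Col4a1 higher. Those over the lists for mesoderm (236 to 252 and 237 to 248), blood and endothelium (326 to 353 and 311 to 371) and glia (133 to 164 and 141 to 171) overlapped, again with the agonist first. No marker of any list was at 0 on any array. On the first principal component of all tested probe sets, which held 27.8% of the variance, retinoic-acid replicate 3 (-0.44) and agonist replicate 7 (1.87) stood closest to each other across the groups. The part of these differences in the changes of the members was not tested.

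**Figure D3:**
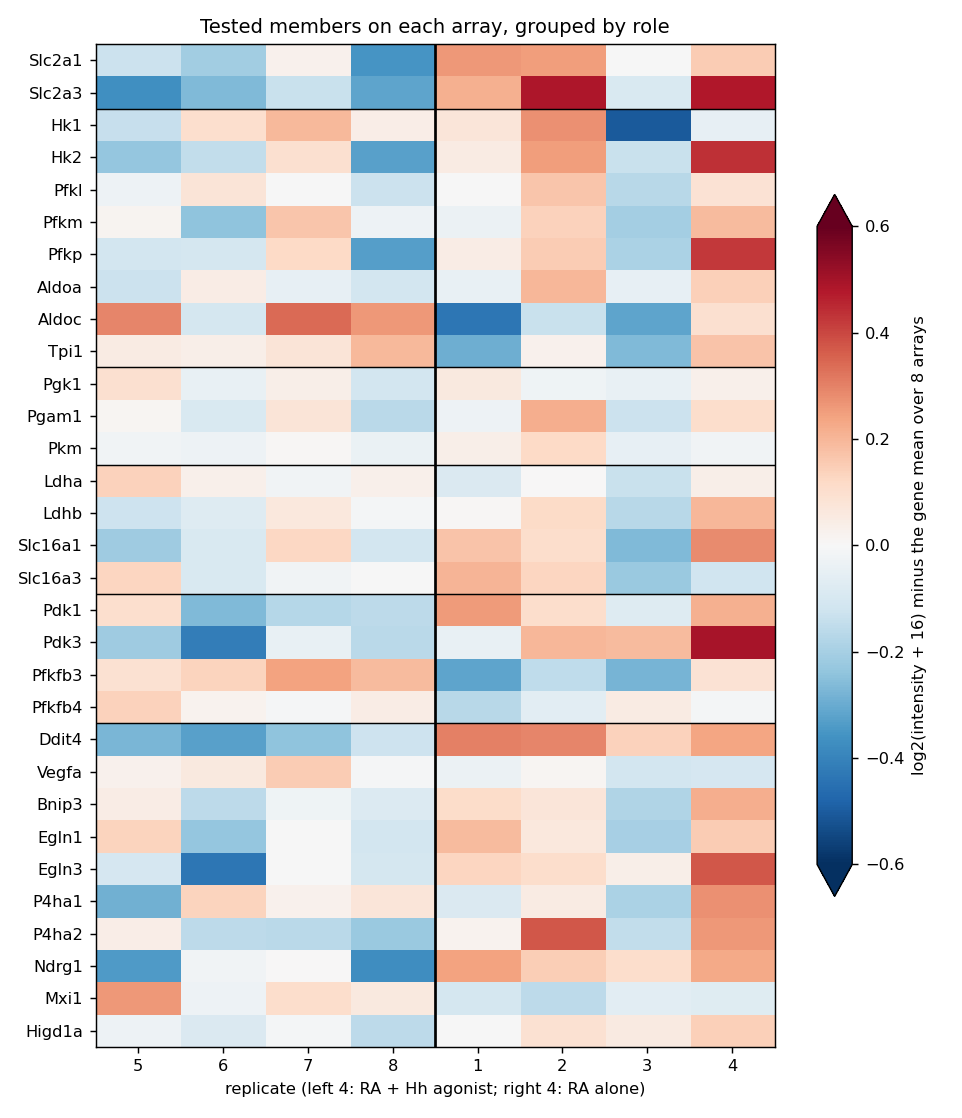
Log2(intensity + 16) of each tested member on each array minus the member's mean over the 8 arrays, in colour, with the agonist replicates 5 to 8 left of retinoic-acid replicates 1 to 4 and lines between the roles. Retinoic-acid replicate 3, the lowest of its group for 24 of the 31 members, is blue across most rows. Retinoic-acid replicate 4 is red across most rows, though not for Hk1, Pkm, Slc16a3, Pfkfb4, Vegfa and Mxi1.

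Gapdh, the glyceraldehyde-3-phosphate dehydrogenase of glycolysis, was read by the array's control probe sets near its 3′ end, middle and 5′ end. The 3′ control averaged 3731 ± 99.3 with the agonist and 3755 ± 118 with retinoic acid alone (SD, n = 4 each; two-sided exact permutation test, p = 0.686, where the design allows no p below 0.0286). The ratio of the 3′ to the 5′ control, a measure of RNA integrity, was 0.617 ± 0.011 with the agonist and 0.614 ± 0.0034 without it (SD, n = 4 each; exact permutation p = 0.657).

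The arrays were hybridised on 2 days with 2 chip lots. The first day held agonist replicate 5 and retinoic-acid replicate 1, which used the same fluidics station. On the second day the agonist arrays were washed on 1 station and the retinoic-acid arrays on another, so station and group cannot be told apart there. On the first day the log2 difference, from 1 array of each group and without a test, was -0.58 for Slc2a3, -0.39 for Slc2a1 and -0.58 for Ddit4. Within the second day it was -0.53 for Slc2a3 (limma, adjusted p = 0.0265), -0.31 for Slc2a1 (limma, adjusted p = 0.137) and -0.45 for Ddit4 (limma, adjusted p = 0.0385).

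Other genes of the same pathways gave few calls: of 127 tested in 8 lists, 1 fell, 1 rose and 125 did not pass, with a median log2 fold change of -0.02, where 2.18% of all tested genes passed in either direction. Bhlhe40, a hypoxia-induced transcriptional repressor, read 31.9, 32.9, 30.9 and 31.1 with the agonist against 50.1, 59.4, 54.1 and 50.1 without it, with no overlap. Its log2 fold change was -0.54 with a standard error of 0.099 (limma, adjusted p = 0.0052), and it was the 1 call among 29 tested other hypoxia targets. The brightest of that list, the cytokine Mif and the mitochondrial gene Fam162a, differed by -0.03 and 0.00. Vldlr, the very-low-density lipoprotein receptor, read 173, 153, 154 and 137 with the agonist against 110, 97.1, 102 and 91.1 without it. Its log2 fold change of 0.55 had a standard error of 0.088 (limma, adjusted p = 0.0013), and it was the 1 call among 17 ATF4 and nutrient stress targets. In that list the amino acid synthesis genes Asns and Psat1 differed by -0.03 and 0.22 and did not pass.

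The remaining 6 lists gave 0 calls by limma. Among 15 tested other glycolysis genes the brightest, Galm and Eno3, differed by -0.04 and -0.18. Of 9 other glucose and lactate transporter genes, Txnip, which restrains glucose uptake, differed by 0.12 and Bsg, a chaperone of lactate transporters, by -0.03. In the pentose phosphate pathway (8 tested), Tkt differed by 0.24 and Taldo1 by -0.01. Of 26 genes of pyruvate dehydrogenase and the TCA cycle, Idh3b differed by -0.08 and Sdhb by 0.06. The HIF factors and oxygen sensors (13 tested) had Ep300 at -0.02 and Siah1a at 0.08, and the Myc and growth genes (11 tested) had Npm1 and Ncl both at -0.09.

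**Figure D4:**
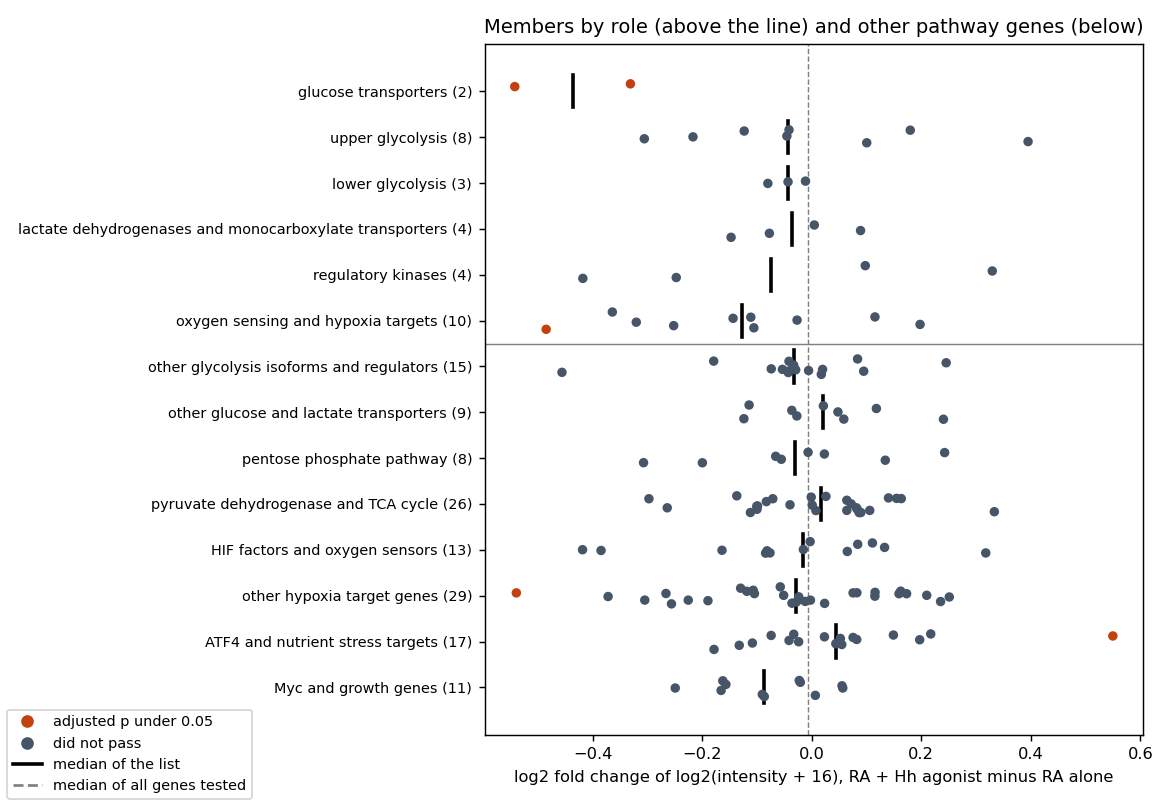
Log2 fold change (agonist minus retinoic acid alone) of each tested gene, by role for the members (above the line) and by list for other pathway genes (below it), with the number of genes in brackets, black bars for medians and a dashed line at the median of all tested genes. The red points, with adjusted p under 0.05, are both glucose transporters, Ddit4, Bhlhe40 on the left and Vldlr on the right.

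The calls differed in how they held across 20 other settings. Some changed the processing, and others used fewer arrays. Of those with fewer arrays, 8 left out 1 array, and the rest kept the second day only or left out 1 array of each group. Ddit4 passed in all 20, with log2 fold changes between -0.54 and -0.36. It has 1 probe set, so averaging probe sets could not move its value. The setting without retinoic-acid replicate 3 and agonist replicate 7 left out arrays that stood out in these same member values. For all 3 genes it gives no separate support. Slc2a3 passed in 18, between -0.71 and -0.47, and did not pass without an intensity trend in the variance (limma, adjusted p = 0.101) or when its probe sets were averaged (limma, adjusted p = 0.0619). Slc2a1 passed in 14, between -0.45 and -0.27, and did not pass without the trend (limma, adjusted p = 0.232), on the second day alone or in the 4 settings named above. Of the other 28 tested members, 26 passed in none of the settings, and Hk2 and Aldoc in 1 each.

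**Figure D5:**
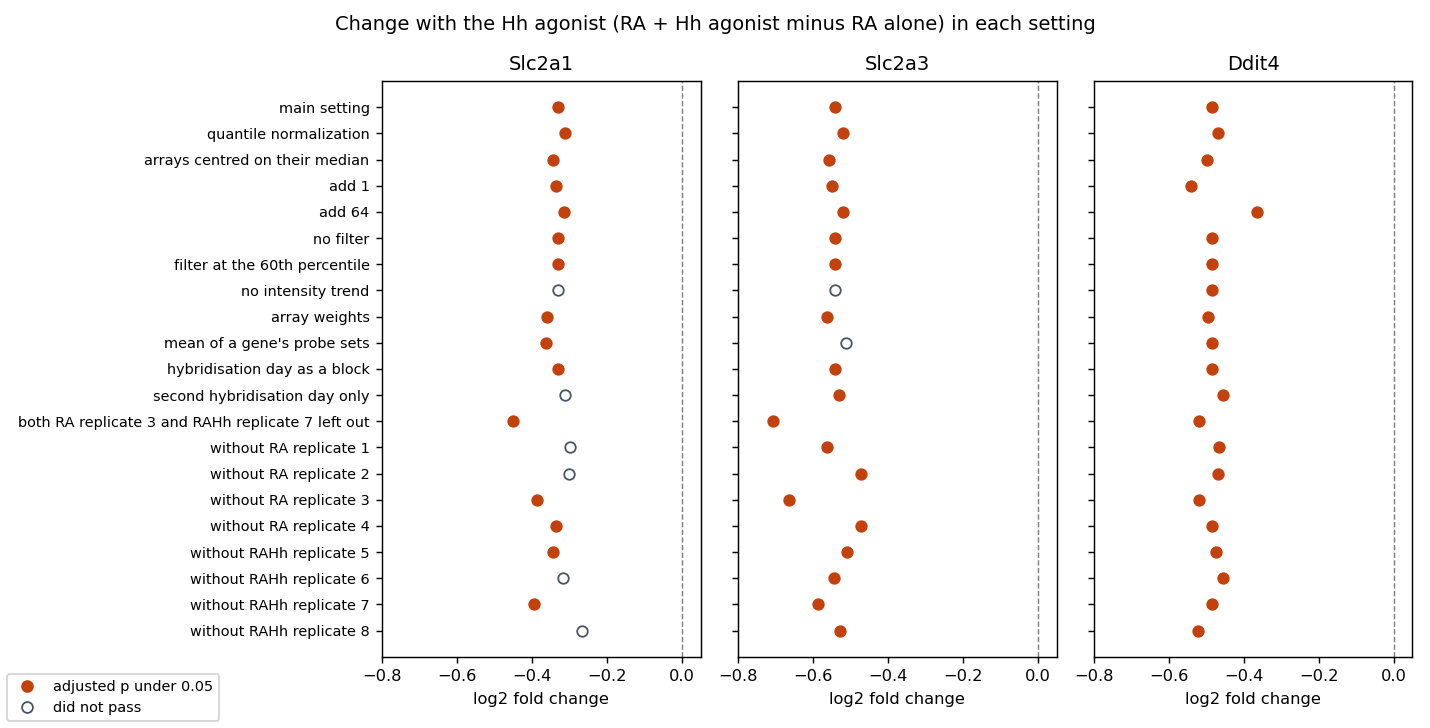
Log2 fold change (agonist minus retinoic acid alone) of Slc2a1, Slc2a3 and Ddit4 in the main setting and in each of 20 others, filled where adjusted p was under 0.05. The points of Ddit4 are filled in every setting, and those of all 3 genes stay below 0.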

How the data were processed

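Per the labels, total RNA was extracted with Trizol. The authors deposited a table of linear intensities for 45101 probe sets, whose summarisation, background correction and normalization are not given in the sources used here. Array medians were 21.6 to 22.6, and precision is limited by having 4 arrays a group. Groups came from the sample titles. The platform annotation named 1 gene for 34945 probe sets, of which 34741 matched RefSeq by gene ID.

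Intensities became log2(intensity + 16). The 64 control probe sets were left out, and a probe set entered the test if its mean over the 8 arrays exceeded the 40th percentile (intensity 15.1). This left 27022 probe sets and 13675 genes. limma 3.58.1 in R 4.3.3 fitted the 2 groups with an intensity trend, and p-values were adjusted by Benjamini-Hochberg over all tested probe sets. The procedure was tested on simulated data. Probe-set intensities were ranked only to choose which genes to name (the brightest), and no difference in level between genes is drawn from them. Every member is accounted for, with values on each array where a probe set passed or groups did not overlap and for the brightest member of each role. Of other lists, genes that passed are named, otherwise the 2 brightest. Members, lists and tests were chosen with earlier results of these data known.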

Additional observations from a re-analysis of the deposited data

How the results depend on the processing

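Of the 31 tested members, 24 changed sign in none of the 20 alternatives and 7 did, all of them members that did not pass; the causes were not tested. Without the intensity trend 1 member gene and 1 member probe set were lower, and 264 probe sets and 158 genes passed in all. On the second hybridisation day alone, with fewer arrays, 3 member probe sets were lower, and 263 probe sets and 157 genes passed. With retinoic-acid replicate 3 and agonist replicate 7 both left out, 12 member probe sets and 5 other pathway genes were lower, and 714 probe sets passed in all. In that setting Hk2 passed at -0.48 (limma, adjusted p = 0.0256). Array weights gave 2 other pathway genes lower, and quantile normalization 3 higher. Leaving out 1 array at a time gave 2 to 3 member genes lower and 0 to 1 higher (Aldoc, at 0.49 with limma's adjusted p = 0.0301 without retinoic-acid replicate 4), 4 to 11 member probe sets lower and 0 to 1 higher, 298 to 616 probe sets and 184 to 368 genes in all, and 1 to 4 other pathway genes lower and 1 to 2 higher. The log2 difference of the Gapdh control ratio was -0.0077 for the 3′ end over the middle, and -0.0011 to 0.0187 for the 3′ over the 5′ end with 1 array left out, the lowest without agonist replicate 7. Log2 fold changes that turned sign were as follows. With probe sets averaged by gene, Pfkl was at 0.0194, Pgk1 at 0.0401, P4ha1 at 0.0987 and Higd1a at 0.0753. With quantile normalization Pgk1 was at 0.0216, with median centring Slc16a3 was at -0.0093, and with array weights Slc16a3 was at -0.0323. On the second day P4ha1 was at 0.0325. With both arrays left out, Hk1 was at -0.0986 and Slc16a3 at -0.0614. With 1 array left out, the log2 fold change ran from -0.0501 to 0.209 for Hk1, -0.104 to 0.0070 for Pfkl, -0.121 to 0.0283 for Pfkm, -0.0455 to 0.0235 for Pgk1, -0.0692 to 0.0734 for Slc16a3 and -0.0939 to 0.0653 for P4ha1. No paired analysis was made, because the labels do not say which samples of the groups, if any, were prepared together. With hybridisation day as a block, 3 member genes and 7 member probe sets were lower and 537 probe sets passed in all, and Slc2a1, Slc2a3 and Ddit4 were the members that passed. Dim members limit the comparison: Eno2, Ankrd37 and Adm lay under the filter.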
